A study of Arabidopsis thaliana with 4 samples.

Results

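The regions described here are the Pol V peak summits that fall in the coding sequence of Arabidopsis thaliana protein-coding genes. A summit was taken as a coding-sequence summit when its single base lay in an annotated coding segment of a protein-coding gene, in any isoform, on chromosomes 1 to 5 of the RefSeq annotation of TAIR10.1. Of the 11478 summits in the deposited list, 1551 met this rule, a share of 13.5% (95% Wilson interval 12.9 to 14.2%). The rule used position only, so the score of each peak did not enter it.

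The study concerned the DDR complex of DRD1, DMS3 and RDM1, and the summit list marked the Pol V sites over which its ChIP-seq libraries were viewed. The list came from published chromatin immunoprecipitation and sequencing with an antibody against Pol V, set against a control without antibody, and the genotype, tissue and age of that material are not given in the sources used here. The series itself holds 4 anti-FLAG libraries from inflorescences of untreated, soil-grown plants, 1 each from Col0 without a tagged protein, DRD1-Flag, DMS3-Flag and RDM1-Flag, and their signals were not analysed here. Each of those libraries was made once, and the list is a single peak call without read counts, so no summit has a replicate error. The read depth is unknown, and every interval given covers counting error only.

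Pol V is a plant-specific RNA polymerase that makes non-coding transcripts at sites of RNA-directed DNA methylation (RdDM). Small RNAs bound to ARGONAUTE proteins pair with these transcripts, and the methyltransferase DRM2 is brought to the site to methylate cytosines in the CG, CHG and CHH contexts, where H is any base but G. The pathway is best known for silencing transposons and repeats, while many Arabidopsis genes carry CG methylation in their transcribed part that is maintained by another methyltransferase, MET1.

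The sequences below show what lies under the highest coding-sequence summits, together with the highest summits of the F-box and S1 self-incompatibility families described further on. Each is the 101 bases centred on the summit, read 5′ to 3′ on the coding strand of the gene from RefSeq TAIR10.1, with every CG dinucleotide in capitals. The coding strand is the minus strand for AT1G11370, AT1G78740, AT1G31163, CYP706A7, AT2G18480, AT1G53790 and AT3G27680, and the plus strand for the other 3. All bases of these windows are coding except in AT1G11370, where 97 are.
AT1G11370, pectin lyase-like, chr1:3829966-3830066: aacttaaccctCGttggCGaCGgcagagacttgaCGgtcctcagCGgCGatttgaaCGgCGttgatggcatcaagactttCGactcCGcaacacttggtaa
AT1G78740, RNI-like, chr1:29610763-29610863: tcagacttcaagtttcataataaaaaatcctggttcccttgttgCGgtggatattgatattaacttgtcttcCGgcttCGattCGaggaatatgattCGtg
AT1G31163, F-box associated, chr1:11129408-11129508: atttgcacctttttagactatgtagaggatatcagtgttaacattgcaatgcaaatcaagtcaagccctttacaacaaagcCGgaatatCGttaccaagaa
AT2G41445, agamous-like MADS-box, chr2:17277198-17277298: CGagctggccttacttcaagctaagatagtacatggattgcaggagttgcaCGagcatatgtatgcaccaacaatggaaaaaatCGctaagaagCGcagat
AT2G21850, Cysteine/Histidine-rich C1, chr2:9315805-9315905: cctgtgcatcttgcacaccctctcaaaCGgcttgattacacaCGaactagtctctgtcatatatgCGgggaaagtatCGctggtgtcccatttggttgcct
CYP706A7, cytochrome P450, chr4:7318792-7318892: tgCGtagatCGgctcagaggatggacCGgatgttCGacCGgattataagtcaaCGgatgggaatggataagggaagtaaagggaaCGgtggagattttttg
AT2G18480, major facilitator, chr2:8009774-8009874: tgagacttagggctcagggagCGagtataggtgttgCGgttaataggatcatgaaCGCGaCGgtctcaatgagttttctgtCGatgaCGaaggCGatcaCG
AT1G53790, F-box, chr1:20080190-20080290: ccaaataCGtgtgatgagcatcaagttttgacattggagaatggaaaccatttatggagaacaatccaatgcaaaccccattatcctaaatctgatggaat
AT1G50880, F-box, chr1:18861458-18861558: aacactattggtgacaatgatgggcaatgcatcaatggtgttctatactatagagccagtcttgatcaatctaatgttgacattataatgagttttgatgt
AT3G27680, S1 self-incompatibility, chr3:10255038-10255138: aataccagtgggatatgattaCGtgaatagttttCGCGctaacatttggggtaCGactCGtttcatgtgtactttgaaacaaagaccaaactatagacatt

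These windows had no common content of CG sites. The window of AT1G11370 held 10 CG dinucleotides and that of AT2G18480 held 9, whereas the F-box window of AT1G53790 held 1 and that of AT1G50880 held 0. Among the windows shown, GC content ran from 34.7% in AT1G50880 to 53.5% in AT1G11370. The window of AT2G16340, not shown, held 0 CG dinucleotides and 32.7% GC.

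The highest coding-sequence summit was also the highest of the whole list. It had a score of 1615, in the second of 3 coding exons of AT1G11370, 1052 bp from the gene start and 2165 bp from the gene end. AT1G11370 encodes a pectin lyase-like protein, a fold of enzymes that act on the pectin of plant cell walls. The next was at chr3:16159152 with a score of 1389, in the first coding exon of AT3G44570, annotated as a retrotransposon ORF-1 protein. AT4G03380, an uncharacterized protein, held a summit of score 1329 at chr4:1489155. AT1G78740, an RNI-like protein with the leucine-rich fold known from ribonuclease inhibitors, held one of 1224. The summit of AT1G31163 scored 1187, in a gene annotated as an F-box associated ubiquitination effector. AT2G41445, a MADS-box protein of the agamous-like kind, followed at 1150 in the last of its 9 coding exons. The C1 domain gene AT2G21850 had a summit of 1144, and the cytochrome P450 gene CYP706A7 one of 1131. The last of the 10 highest were AT2G16340, uncharacterized, at 1088 and AT2G18480, a membrane transporter of the major facilitator kind, at 1039. In 9 of these 10 the 50-mers within 250 bp were all unique in the genome, and in AT3G44570 the share was 94.2%.

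Coding sequence held fewer summits than its size. It makes up 28.3% of the determined bases of the chromosomes (33.7 Mb) and carried 46.1 summits per Mb, against 189 per Mb outside genes. Introns (563 summits) carried 31.1 per Mb and untranslated exons (467 summits) 36.8 per Mb, so over the full list coding sequence was the densest part of protein-coding genes. Among summits at or above the list's median score of 169 the order turned, with 12.8 per Mb in coding sequence, 13.9 in introns and 19.4 in untranslated exons. Pseudogenes, with transposon genes included, carried 54.0 per Mb (559 summits). By chromosome, coding sequence carried from 42.0 summits per Mb on chromosome 5 to 50.2 on chromosome 4, and the share of summits that were coding ran from 11.3% on chromosome 2 (10.02 to 12.7%) to 14.7% on chromosome 1 (13.5 to 16.1%).

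The peaks over coding sequence were low. The score is the whole number the authors' peak caller gave each peak, and its unit is not named, so it serves only to rank peaks within the list. Coding-sequence summits had a median score of 81 (95% interval 77 to 85), with quartiles of 52 and 194, a lowest value of 28 and a highest of 1615. The median was 189 (184 to 194) outside genes, 186 (159 to 212) in untranslated exons, 147 (126 to 164) in introns, 135 (117 to 153) in pseudogenes and 226 (205 to 273) in non-coding RNA genes. The median over coding sequence minus that outside genes was −108 (−114 to −102), and a coding-sequence summit had the higher score in 31.1% of all such pairs. Against introns the difference was −66 (−83.5 to −44.6), with the coding-sequence summit higher in 39.8% of pairs. Among summits at or above the list's median score of 169 the difference from introns was 13.5 (−34.1 to 50.1), an interval that includes 0. That selection cuts on the score itself, so it cannot serve as a check of a difference in score. A score below the lower quartile of the list, 79, was found at 748 coding-sequence summits (48.2%, 45.7 to 50.7%) and at 19.6% of summits outside genes, a difference of 28.6 points (26.0 to 31.3). A score above the upper quartile, 352, was found at 185 (11.9%, 10.4 to 13.6%). The 100 highest scores of the list included 8 coding-sequence summits and the 100 lowest included 22.

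**Figure D1:**
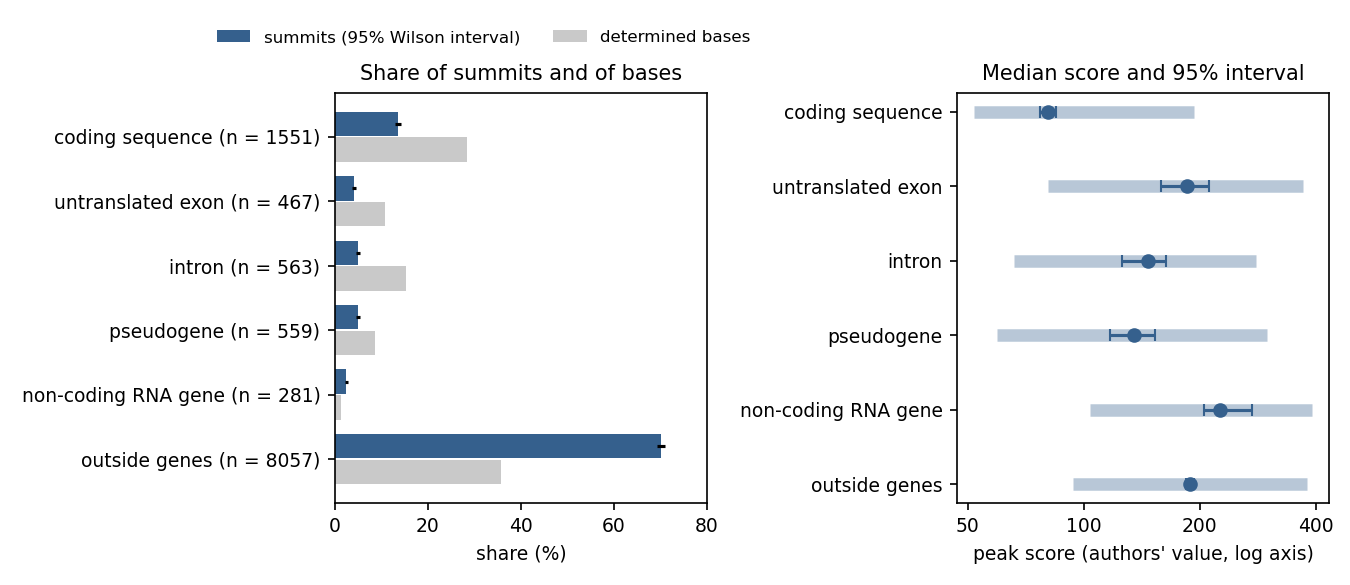
Left, the share of the 11478 summits (blue bars, with 95% Wilson intervals) and of the determined bases (grey bars) in each annotation class, in percent. Right, the median peak score of each class (points, with 95% intervals) and the band between its quartiles, on a log axis. Coding sequence holds 13.5% of summits and 28.3% of bases, and its median score of 81 is the lowest of the 6 classes.

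GC content differed between the classes, and over coding sequence and introns it moved with the score. Outside genes the median score showed no steady change, at 176, 195, 239, 194 and 188 in the 5 GC classes from 25 to 50%. In introns the median fell through the same 5 classes, at 201, 151.5, 104, 89 and 79. Coding-sequence summits averaged 43.0% GC within 100 bp and intron summits 33.3%, so scores were also viewed at like GC content. At 35 to 40% GC the median was 109 (96 to 133, n = 373) over coding sequence and 239 (220 to 263, n = 1391) outside genes. At 45 to 50% GC the medians were 73 (66 to 81, n = 362) and 188 (141 to 230, n = 146). The intervals of these 2 classes were also apart at 40 to 45% GC, with 75 (69 to 83) against 194 (174 to 222). They overlapped at 30 to 35% GC, with 152 (112 to 197) against 195 (188 to 207). At 25 to 30% GC they overlapped too, with 114.5 (62 to 216) against 176 (169 to 182). Introns gave another picture. At 35 to 40% GC their median was 104 (85 to 147, n = 153), beside 109 over coding sequence. In each of the 5 GC classes from 25 to 50% the intervals of introns and coding sequence overlapped. Some groups were small, with 12 coding-sequence summits at 25 to 30% GC and 16 intron summits (42 to 251) at 45 to 50%. Overlap in such wide intervals does not show that the scores were alike. The part of GC content in the scores was not tested.

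Counted in bases, coding-sequence summits were near a gene end more often than coding bases were. Of the 1551, 848 (54.7%, 52.2 to 57.1%) were within 500 bp of the start or the end of the gene, against 32.6% of coding bases. The share was 29.1% (26.9 to 31.5%) within 500 bp of the gene start, where 17.9% of coding bases lie, and 35.8% (33.5 to 38.3%) within 500 bp of the 3′ end, where 17.1% lie. Within 250 bp of either end the shares were 26.4% (24.3 to 28.7%) of summits and 11.4% of coding bases. In the first 100 bp from a gene end lay 7.87% of summits and 2.86% of coding bases, and the distribution fell below that of coding bases beyond 600 bp. The share of coding bases was taken over every 100th base of the coding sequence, 336752 positions in all. Gene length was not matched in this comparison, and in a short gene every base is near an end. Measured along the coding sequence there was no such excess at the ends. The first 10% held 8.32% of summits and 10.1% of coding bases, and the last 10% held 10.8% (9.32 to 12.4%) and 10.4%.

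The exon structure differed as well. Genes with 1 coding exon held 453 of the summits (29.2%, 27.0 to 31.5%) and 17.0% of coding bases. In genes with several coding exons, the last one held 28.8% of summits (26.6 to 31.1%) against 19.4% of coding bases, the first one 16.1% (14.3 to 18.0%) against 18.6%, and internal coding exons 26.0% (23.9 to 28.2%) against 45.04%. Coding exons of at least 500 bp held 48.1% of summits (45.6 to 50.6%) and 41.6% of coding bases. Along the coding sequence from start to stop codon, each step of 10% from 0 to 40% held between 7.61% and 8.32% of summits, and each step from 40 to 100% held between 10.4% and 12.3%.

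**Figure D2:**
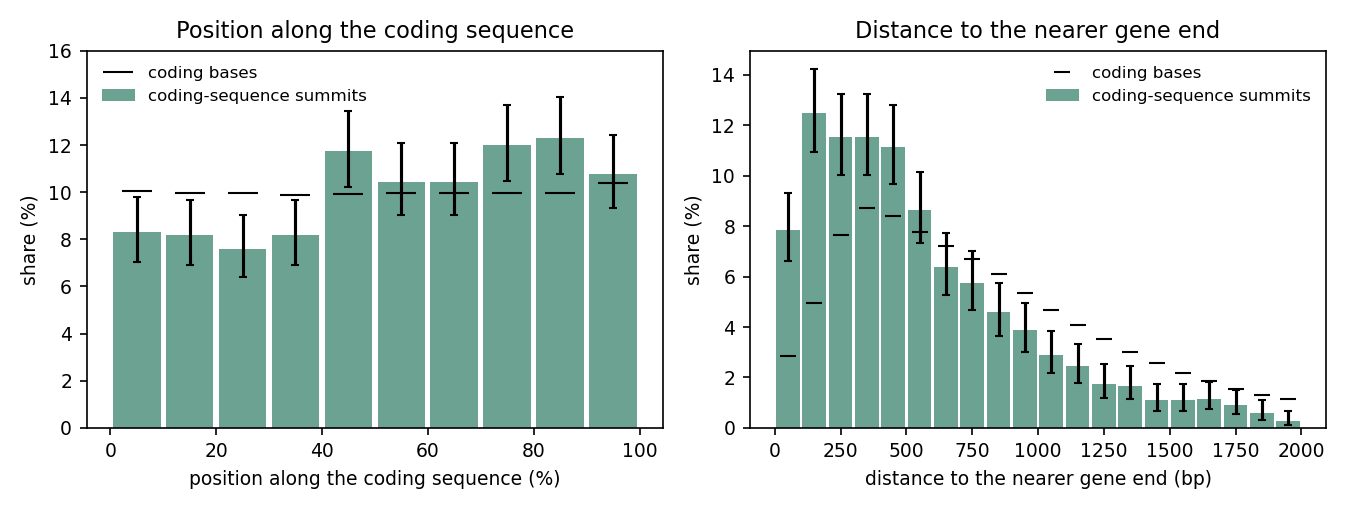
Shares of the 1551 coding-sequence summits (bars, with 95% Wilson intervals) and of coding bases (black dashes), in percent, by steps of 10% of the coding sequence from start to stop codon (left) and by distance to the nearer gene end in steps of 100 bp up to 2000 bp (right). The bars exceed the dashes in each step within 500 bp of a gene end and are lower up to 40% of the coding sequence.

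Coding-sequence summits were also placed more often than coding bases in gene-poor regions and beside pseudogenes. In bins of 500 kb where protein-coding genes cover under 35% of the bases lay 174 of them (11.2%, 9.74 to 12.9%) and 5.50% of coding bases. Within 1000 bp of a pseudogene or transposon gene lay 61 (3.93%, 3.07 to 5.02%) and 1.47% of coding bases. The other 1377 summits were in the remainder of the chromosomes. Among summits at or above the list's median score the gene-poor share was 7.21% (5.13 to 10.1%), which reaches the 5.50% of coding bases. Of the 6 annotation classes coding sequence had the lowest gene-poor share, with 17.1% in introns, 18.4% in untranslated exons and 26.2% outside genes. Its share within 1000 bp of a pseudogene was low among the classes too. That share was 3.02% in introns, 6.85% in untranslated exons, 9.61% in non-coding RNA genes and 13.9% outside genes. The 174 summits in gene-poor bins had a median score of 67 (61 to 80), against 83 (79 to 88) for the others.

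The base composition around the summits differed from that of coding sequence in general, in GC content and in the context of cytosines. Mean GC content within 100 bp was 43.0% ± 5.71 (SD over 1551 summits), against 41.9% ± 5.08 at coding bases and 31.3% outside genes. Among summits at or above the list's median score it was 41.5% (40.95 to 42.1%), an interval that includes that of coding bases, and within 250 bp the means were 40.7% at both. CG cytosines, the context that MET1 maintains, were 7.46% of bases (SE 0.0973) at the summits and 6.14% at coding bases. CHG cytosines, the context maintained by CMT3, were 6.48% (SE 0.0753) against 7.15%, the opposite direction. CHH cytosines, which depend on DRM2 and CMT2, were 29.1% (SE 0.1002) against 28.6%. At 40 to 45% GC the CG share was 7.003% (SE 0.124) at 528 summits and 5.82% at coding bases of like GC, and CHG was 6.19% against 7.33%. The CG share was also higher at 30 to 35%, 35 to 40% and 45 to 50% GC, but at 50 to 55% GC it was lower, 11.6% (SE 0.340, n = 137) against 12.8%. These are counts of sites in the genome sequence, and methylation itself was not measured in the data used here.

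The properties of the coding-sequence summits changed with their score. They were divided into 4 score classes of like size, with scores of 28 to 52 (n = 394), 53 to 81 (n = 389), 82 to 194 (n = 382) and 195 to 1615 (n = 386). The share within 500 bp of a gene end was 48.98% (44.1 to 53.9%) in the lowest class and 64.8% (59.9 to 69.4%) in the highest. The share in genes with 1 coding exon was 23.4% (19.4 to 27.8%) in the lowest and 35.5% (30.9 to 40.4%) in the highest. Another summit of the list within 1000 bp was found for 32.5% (28.1 to 37.3%) of the lowest class and 13.5% (10.4 to 17.2%) of the highest. The median coding length of the genes fell from 1447.5 to 1290, 1182 and 1017 bases from the lowest class to the highest. Mean GC content was 43.9% (SE 0.262) in the lowest class and 41.5% (SE 0.295) in the highest, and CHG cytosines were 7.12% (SE 0.146) and 5.60% (SE 0.137). Conversely, the median score was 93.5 (85 to 104) for the 848 summits near a gene end and 71 (66 to 77) for the 703 farther inside. It was 72 (64 to 80) in internal coding exons and 90 (83 to 105) in genes with 1 coding exon. The intervals of both pairs were apart.

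**Figure D3:**
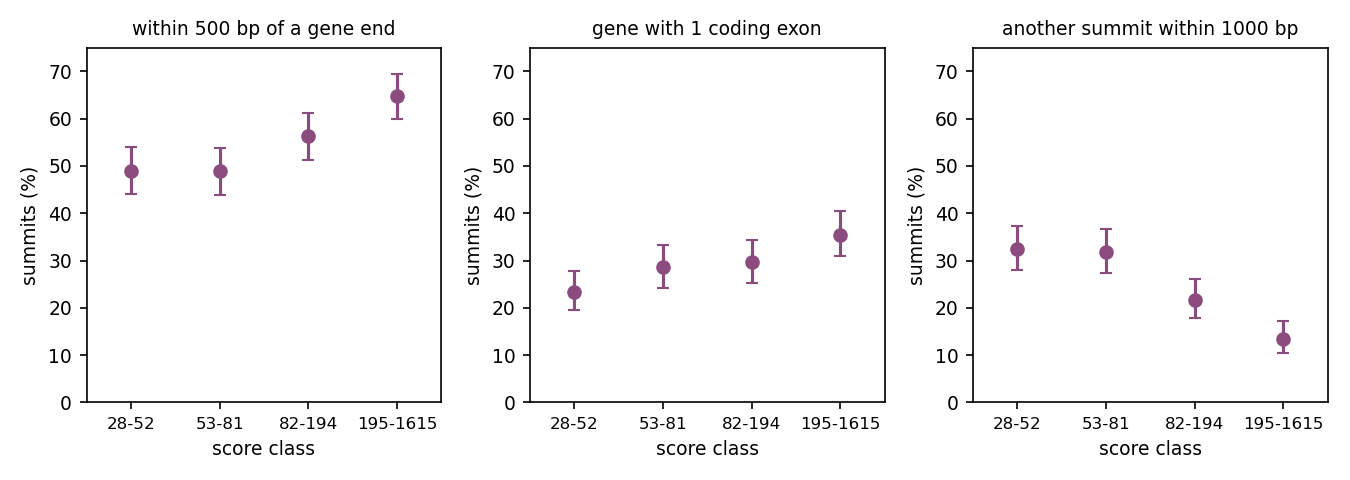
Share of coding-sequence summits (points, percent, with 95% Wilson intervals) within 500 bp of a gene end (left), in a gene with 1 coding exon (middle) and with another summit within 1000 bp (right), for 4 classes by peak score. From the lowest to the highest class the first rises from 48.98% to 64.8% and the last falls from 32.5% to 13.5%.

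Many of the coding-sequence summits had a close neighbour, but no more often than other summits. Another summit lay within 1000 bp of 387 of them (24.95%, 22.9 to 27.2%), against 25.3% of summits outside genes, a difference of −0.38 points (−2.68 to 2.02). The nearest neighbour was in coding sequence for 153 of the 387 and outside genes for 145, and for 143 it was in the coding sequence of the same gene. Summits with such a neighbour had a median score of 64 (60 to 69) and those without one 89 (84 to 99).

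The summits lay in 1400 host genes, 5.10% (4.85 to 5.37%) of the 27444 protein-coding genes. Of these hosts, 1260 held 1 summit, 130 held 2, 9 held 3 and 1 held 4. Hosts had a median coding length of 1171.5 bases (1131 to 1212) against 1047 (1038 to 1056) for all protein-coding genes, although their median gene length was shorter, 1947 bp (1836 to 2034) against 2078 (2062 to 2093). A longer coding sequence has more room for a summit, so the longer hosts alone show no preference of summits for long genes. Hosts of summits at or above the list's median score had a median coding length of 1023 bases (939 to 1101), an interval that includes the 1047 of all genes. Of 5 length classes of like size, genes with the shortest coding sequence, up to 513 bases, were hosts in 3.76% of cases (3.29 to 4.30%), and those with the longest, from 1737 bases, in 6.04% (5.44 to 6.70%). Genes with 1 coding exon were hosts in 6.50% of cases (5.92 to 7.13%) and genes with several in 4.68% (4.40 to 4.97%). A host was next to another host along the chromosome for 336 genes (24.0%, 21.8 to 26.3%), while 8.98% (8.64 to 9.33%) of the other genes were next to a host.

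The hosts with 3 or 4 summits covered several kinds of protein. AT1G58390, a CC-NBS-LRR disease resistance gene, had 4 low summits. From the start codon on they lay 37.4%, 46.8%, 68.9% and 85.4% along its coding sequence, with scores of 44, 71, 42 and 35. AT2G19360, annotated as a putative tRNA-splicing ligase with the domain DUF239, had scores of 50, 100 and 646, the highest in its last coding exon 94 bp from the gene end. HA8, a plasma membrane proton pump, had 32, 58 and 377, again with the highest at the 3′ end of the coding sequence. PAP11, a purple acid phosphatase, had 75, 315 and 147, and the glycine/proline-rich protein gene AT5G07570 had 274, 39 and 104. In AT4G10220 the scores were 85, 104 and 89, and in the extensin-like gene EPR1 they were 62, 66 and 102. FAB1B, a lipid kinase, had 91, 58 and 94, the ankyrin repeat gene AT4G03440 had 66, 49 and 80, and the zinc finger gene AT1G29560 had 61, 63 and 28. In 4 of these 10 genes at least 1 summit passed the list's median score of 169, and in the other 6 none did.

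Host genes were frequent in some families and rare in others. Genes were grouped by locus or by the words of their RefSeq product name into 17 lists, and the share of each list that held a coding-sequence summit was set beside the 5.10% of all genes. The share was above it, with an interval that did not reach 5.10%, in 9 of the 17 lists, and below it in 1. Since long genes have more room for a summit, the number of summits per Mb of coding sequence is given too, beside 46.3 for all genes. Counting only summits at or above the list's median score, where 1.54% of all genes were hosts, 8 lists were above the share of all genes. Of these, 7 were among the 9, NLR genes and receptor-like kinases dropped out, and defensin-like genes came in.

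The F-box proteins, which select substrates for SCF ubiquitin ligases and form a very large family in Arabidopsis, had the most hosts of the lists of known domains. Of 653 F-box genes 135 were hosts (20.7%, 17.7 to 23.9%), with 143 summits, 201 per Mb of coding sequence, and a median score of 125 (94 to 178). Among them 87 of the 143 summits (60.8%) lay in genes with 1 coding exon. Such genes are 45.02% of the F-box genes and 23.26% of all protein-coding genes, so the family itself is rich in them. Whether summits within the family prefer genes with 1 coding exon was not tested. The highest after AT1G31163 were AT1G53790 with a score of 1004, AT1G50880 with 999 and AT4G38870 with 894. A host of this family was next to another host in 41 of 135 cases (30.4%, 23.2 to 38.6%). Among hosts without the F-box genes the share was 23.3% (21.1 to 25.7%), and the intervals overlapped.

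The F-box hosts were concentrated in genes annotated with the F-box associated interaction domain, a grouping that was chosen after its values had been seen. Of 247 such genes 87 were hosts (35.2%, 29.5 to 41.4%), with 93 summits, of which 38 were on chromosome 3 and 32 on chromosome 1. The number of the 247 genes on each chromosome was not counted, so these counts show no preference of summits for a chromosome. Of the 406 F-box genes without the domain 48 were hosts (11.8%, 9.03 to 15.3%). The median scores were 143 (108 to 249) and 75.5 (63 to 148). Their position was narrow as well. In the genes with the domain 54 of 93 summits (58.1%, 47.9 to 67.6%) lay between 40 and 70% of the coding sequence, which holds 29.8% of all coding bases, and in those without it 12 of 50 did (24.0%, 14.3 to 37.4%). Among the coding-sequence summits outside both the F-box and the S1 self-incompatibility genes the share was 30.6% (28.2 to 33.1%). Among those of them in genes with 1 coding exon it was 33.5% (28.8 to 38.6%). The range from 40 to 70% was likewise chosen after the positions had been seen.

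The S1 self-incompatibility homologues, small secreted proteins named after the poppy stigma protein, had the highest share of the 17 lists. Of 67 genes 18 were hosts (26.9%, 17.7 to 38.5%), with 19 summits or 611 per Mb, and a median score of 194 (125 to 293). The highest was in the single coding exon of AT3G27680 with 959, at 50% of its coding sequence and 202 bp from either end of the gene, so that the middle of such a short gene is also near its ends. AT3G54925 followed with 375 at 61.2% of its coding sequence, AT2G23142 with 356 at 64.5% and AT3G55677 with 309 at 82.8%. In all, 15 of the 19 summits (78.9%, 56.7 to 91.5%) lay between 40 and 70% of the coding sequence.

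**Figure D4:**
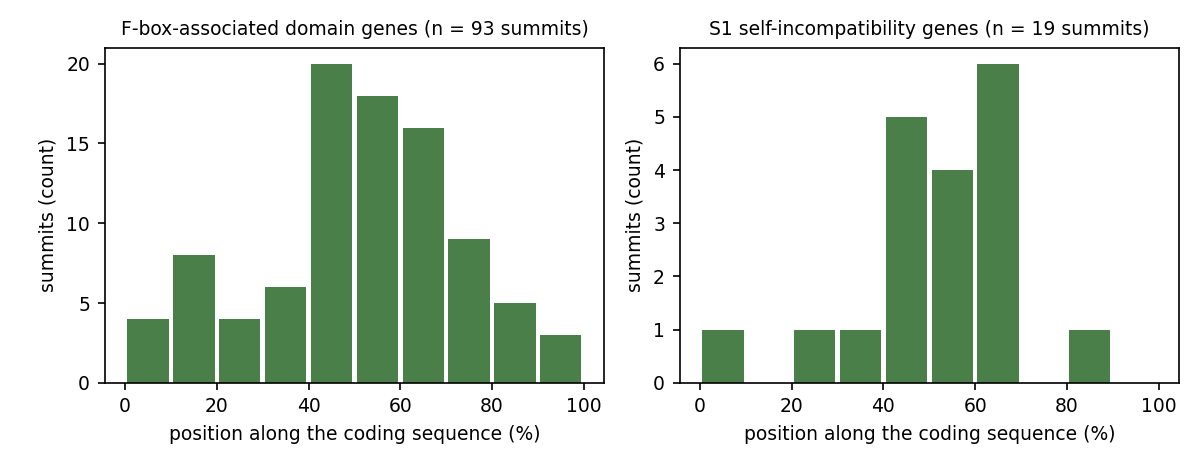
Number of coding-sequence summits by steps of 10% of the coding sequence from start to stop codon, in F-box genes with the F-box associated interaction domain (left, 93 summits) and in S1 self-incompatibility genes (right, 19 summits). The steps from 40 to 70% hold 20, 18 and 16 summits in the first and 5, 4 and 6 in the second.

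Of the other lists above the share of all genes, the C1 domain proteins, with zinc-binding Cysteine/Histidine-rich repeats, had 27 hosts of 148 (18.2%, 12.9 to 25.2%) and 135 summits per Mb. Besides AT2G21850 they included AT5G55800 with a score of 898, AT1G55430 with 889 and AT5G42280 with 747. Genes grouped as receptor-like kinases by words such as receptor-like in the product name had 27 hosts of 169 (16.0%, 11.2 to 22.2%) and 98.7 summits per Mb. Many such kinases sense signals at the cell surface, but the list also holds CRCK3, annotated as a cytoplasmic kinase. The median score of the summits in these genes was 52.5 (41 to 83) and the highest 248, in AT4G08850. Counting only summits at or above the list's median score, 1.18% (0.325 to 4.21%) of these genes were hosts. The words miss other kinases of this kind, with high and with low peaks. AT1G35710, a kinase with a leucine-rich repeat domain, had a score of 993. WAKL4, a wall associated kinase-like protein, had 389 and 192, whereas WAKL2 had 43 and 77, WAK3 had 42 and WAK5 had 35. All of these were looked up after their values had been seen, and the missed kinases were not counted as a group. Genes still annotated with transposon-related proteins had 16 hosts of 108 (14.8%, 9.33 to 22.7%), 162 summits per Mb and a median of 203 (54 to 425). Pectin lyase-like proteins, pectin methylesterases and the inhibitors of the latter, which act on the cell wall, were taken as 1 list, with 27 hosts of 233 (11.6%, 8.09 to 16.3%) and 114 summits per Mb. Besides AT1G11370 its highest were AT1G17150 with 837 and VGDH1 with 734.

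At the other end, ribosomal protein genes, which are expressed in every cell, had 4 hosts of 344 (1.16%, 0.453 to 2.95%) and 19.7 summits per Mb, and their highest summit was 232, in the mitochondrial ribosomal protein gene AT4G09012. Photosystem and light harvesting genes had 0 hosts of 60. That allows a share of up to 5% by a limit of 3 counts, and the Wilson interval of 0 to 6.02% includes the share of all genes. Pentatricopeptide repeat genes, for organelle RNA processing, had 9 of 262 (3.44%, 1.82 to 6.40%), RING ubiquitin ligases 14 of 333 (4.20%, 2.52 to 6.93%) and proteins of unknown function 187 of 4022 (4.65%, 4.04 to 5.34%), and these intervals include the share of all genes. They carried 18.5, 43.9 and 70.8 summits per Mb, so that the genes of unknown function, which are short, were above all genes by length and not by share. Thus the F-box genes, which work with ubiquitin ligases, and the RING genes, which are ubiquitin ligases themselves, had shares of 20.7% and 4.20%.

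**Figure D5:**
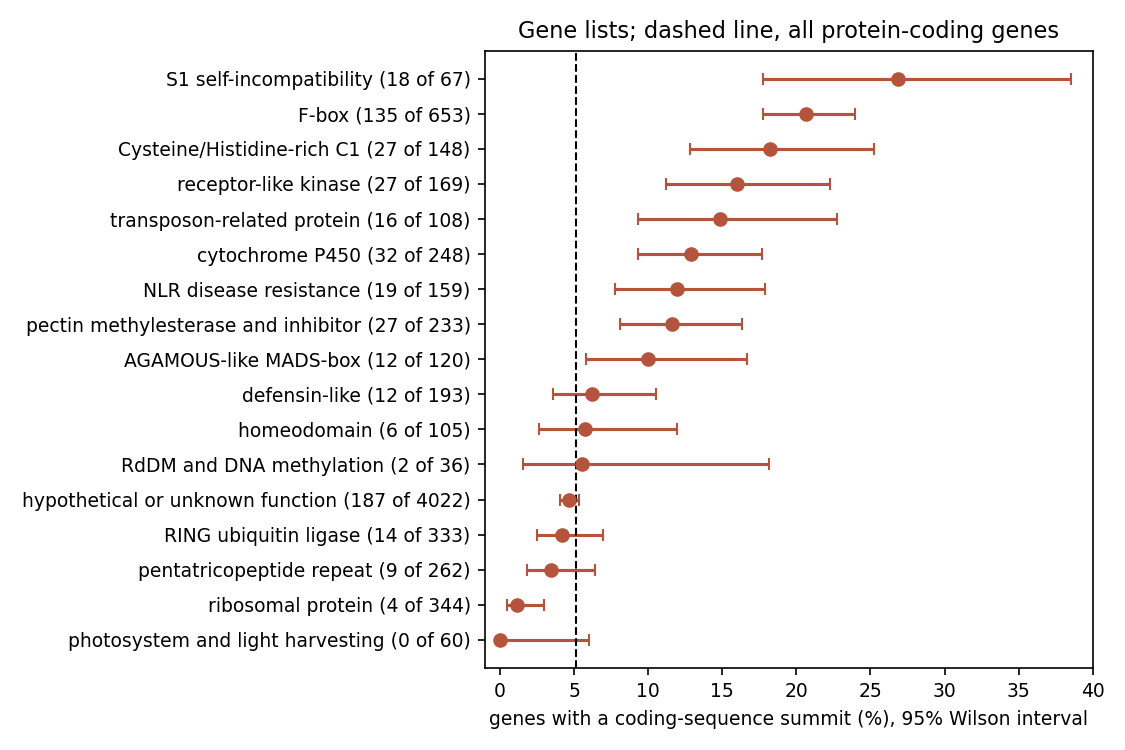
Share of the protein-coding genes of each of 17 lists that held a coding-sequence summit (points, percent, with 95% Wilson intervals, and the hosts and genes in brackets). The dashed line is the share of all protein-coding genes, 5.10%, and the S1 self-incompatibility list is highest at 26.9%.

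The disease resistance and P450 families were above the share of all genes as well. NLR genes, the intracellular immune receptors, had 19 hosts of 159 (11.9%, 7.79 to 17.9%) with 28 summits and a median score of 56.5 (50 to 71), the highest being AT2G14080 with 718 and AT1G63870 with 497. These long genes carried 60.4 summits per Mb, and counting only summits at or above the list's median score 2.52% of them were hosts (0.983 to 6.29%), an interval that includes the 1.54% of all genes. On average 90.7% of the 50-mers near coding bases of NLR genes were unique, against 97.9% for all genes, so that summits in near-identical NLR copies are less certain. Cytochrome P450 genes had 32 hosts of 248 (12.9%, 9.29 to 17.6%) with 92.8 summits per Mb and a median of 89.5 (58 to 120), which includes the 81 of all coding-sequence summits, and with CYP706A7 far above the next, AT1G66540, at 329. AGAMOUS-like MADS-box genes had 12 hosts of 120 (10%, 5.81 to 16.7%), 153 summits per Mb and a median of 188 (59 to 424), among them AT2G41445, AGL42 with 684, AGL23 with 424 and AGL86 with 352. Defensin-like genes, with very short coding sequences, had 12 hosts of 193 (6.22%, 3.59 to 10.6%), an interval that includes the share of all genes, but 242 summits per Mb, with a median of 214 (73 to 349), and LCR27 was highest at 490. Homeodomain genes had 6 hosts of 105 (5.71%, 2.64 to 11.9%) and 46.3 summits per Mb, about the values of all genes, with WOX1 at 233 and WOX8 at 195.

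Among 36 genes of RdDM and DNA methylation, 2 held a coding-sequence summit (5.56%, 1.54 to 18.1%). This did not differ from the 5.10% of all genes beyond its interval, with a difference from the other genes of 0.45 points (−3.57 to 13.05), and the list carried 18.4 summits per Mb. The 2 are therefore given as single values. CHR38, also named CLASSY 1, a chromatin remodeller that acts with Pol IV in making small RNAs, had a summit of score 39 at chr3:14756920 in the last of its 5 coding exons, 73.1% along the coding sequence. DRM2 itself had one of score 60 at chr5:4716412 in the ninth of its 10 coding exons, 54.0% along. Both scores were below the list's lower quartile of 79.

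Extensins, ankyrin repeat proteins and glycine- or proline-rich proteins were grouped after their summits had been seen. Extensins, repetitive glycoproteins of the cell wall, had 12 hosts of 56 (21.4%, 12.7 to 33.8%) with 19 summits, led by EXT10 at 733 and AT5G06630 at 500. Only 87.9% of 50-mers near their coding bases were unique, the lowest of all lists named here. Ankyrin repeat genes had 11 hosts of 81 (13.6%, 7.76 to 22.7%), with AT5G50140 highest at 314. Glycine- or proline-rich proteins had 29 of 243 (11.9%, 8.44 to 16.6%).

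Some summits lay close to the border of the definition. Of the coding-sequence summits, 74 lay within 10 bp of the edge of their coding exon, with a median score of 114.5, and 59 other summits lay within 10 bp of coding sequence, with a median of 120. A total of 10 summits lay in the coding sequence of more than 1 gene, 17 were also in a non-coding RNA gene and 11 also in a pseudogene.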

How the data were processed

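The processed data were 1 list of Pol V summits, described here with TAIR10.1 genes. The authors aligned published Pol V antibody and no-antibody ChIP-seq reads to TAIR10 with Bowtie 1.0.0, keeping unique hits with at most 2 mismatches, and removed duplicates with SAMtools 0.1.19. Peak calling was by MACS2 (q-value 0.05), and the authors deposited the summits of peaks with more than 2-fold enrichment. Unique mapping removes signal from repeats, and near-identical gene copies are therefore uncertain. Whether libraries were pooled is not given in the sources used here. The deposited score is a whole number per peak without a named unit, and the deposited positions were read as 1-based bases. One blank record (1 in all) was left out. The 4 anti-FLAG libraries, 1 per line, entered no comparison.

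Each summit was placed, in this order, in coding sequence, untranslated exon, intron, pseudogene (transposon genes included), non-coding RNA gene or outside genes. Lengths of coding sequence and exon numbers refer to the longest isoform. Shares have 95% Wilson intervals, medians have intervals from order statistics, and differences combine both intervals. With a single peak call no test between conditions was possible, and p-values are not given. The limit for a count of 0 is 3 counts. The interval code was tested on simulated data. Python 3.11.15, NumPy 2.4.6, pandas 2.3.3, SciPy 1.17.1 and matplotlib 3.10.9 were used.

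The members and gene lists were chosen with earlier results of these data known. Genes named were the 10 highest coding-sequence summits, hosts with 3 or more summits (at most 10), the up to 4 highest members of each list (not all are printed) and every RdDM member. Alternatives were a higher score, merged summits, 1 isoform, summits with 25 bp of coding sequence on each side, at least 90% unique 50-mers, means for medians, other distances and, chosen after seeing the data, leaving out F-box hosts.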

Additional observations from a re-analysis of the deposited data

How the results depend on the processing

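The higher share of summits than of coding bases near a gene end, and the lower score than outside genes, kept their direction in each alternative tried. Keeping summits with a score at or above 169 (5754 summits) changed most. The median difference from introns was then 13.5 (−34.1 to 50.1), where the full list gave −66. Because the selection cuts on the score itself, the score differences under it are no check of those in the full list. With that selection coding sequence held 7.47% of summits, with a median score of 315.5, a difference of −41.5 from summits outside genes, 65.1% within 500 bp of a gene end, a median coding length of hosts of 1023 bases, 35.6% of hosts with 1 coding exon, 41.5% GC, 4.19% with a neighbour within 1000 bp, 7.21% in gene-poor bins (5.13 to 10.1%) and 1.42% of hosts with several summits. Neighbours and summits per host were then counted among the kept summits only, which lowers both shares by construction. Counted against the full list, 13.5% (10.4 to 17.2%) of coding-sequence summits with scores of 195 to 1615 had a neighbour within 1000 bp. At or above 169 the intervals of coding length, GC content and gene-poor share included the values of all genes or coding bases, which they did not in the full list. The cause was not tested. Merging summits within 1000 bp (9890 left) gave a median score of 93, a difference of −127 from outside genes and 4.25% of hosts with several summits, and no neighbour share, which is 0 by construction. Asking for 25 bp of coding sequence on each side gave a share of 11.8%, hosts with 1 coding exon at 32.1% and GC at 43.6%. At least 90% unique 50-mers gave a share of 14.3% and a difference from outside genes of −115. Means in place of medians gave a score of 163.8 and a coding length of 1332 bases. Shares within 250 and 1000 bp of a gene end were 26.4% and 83.8%, GC within 50 and 250 bp 44.0% and 40.7%, neighbours within 500 and 3000 bp 3.61% and 63.6%, gene-poor shares at cut-offs of 30 and 40% of bases 8.06% and 13.2%, and shares within 500 and 2000 bp of a pseudogene 1.35% and 9.22%. At 250 bp the GC content of coding bases was 40.7% too. At those cut-offs and distances 3.77%, 6.48%, 0.42% and 4.29% of coding bases qualified. Without F-box hosts, a setting chosen after seeing the data, hosts with 1 coding exon were 26.3% and GC was 43.3%. In the other 53 of 86 alternatives the value moved by less than the interval or spread of the value reported, or the number of lists above the share of all genes was 8 or 9. At the higher score 7 of those lists were the same, NLR genes and receptor-like kinases were lost and defensin-like genes came in. No paired analysis was possible because each line has 1 library and no value comes from a test between samples. Depth is unknown, so a gene without a summit may hold one below detection.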
